A study of Mus musculus with 12 samples.

Results

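Microexons of 3 to 27 nt were examined in CD8+ T cells that had received antigen with or without costimulation. The splicing table of the study gives Psi (percent spliced in) for pieces of genes called nodes, from 0 where no transcript keeps the piece to 1 where all keep it. Core exon nodes (CE, exons or parts of exons between splice sites) of 3 to 27 nt with a Psi in each of the groups compared were taken, which gave 612 microexons of 89034 CE nodes and of 115403 nodes of all types. They lay in 501 genes, and among CE nodes with a Psi in each group length alone chose them.

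The cells were OT-I T cells, CD8+ T cells with a transgenic receptor for an ovalbumin peptide, from C57BL/6J mice that lacked Rag1 or Rag2, which are needed for B cells and for T cells of other receptors. The cells were transferred into C57BL/6J recipients, which kept their own lymphocytes. Recipients in the Ag group (5 libraries) were given the peptide with control rat IgG, and recipients in the Ag+Costim group (5 libraries) the peptide with agonist antibodies to OX40 (CD134) and 41BB (CD137), costimulatory receptors of the TNF receptor family. Spleen and lymph nodes were taken on day 4 by the labels and the transferred cells were sorted as CD8+ T cells with the congenic marker CD45.1 and the receptor chains of OT-I. Naive OT-I cells (2 libraries) came from mice without transfer or treatment and have no Psi in the table. The age of the mice is not given by group, and the labels do not say which animals each library came from.

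Microexons are exons so short that they can hold only a few codons, and the splicing machinery has little room to assemble on them. Many are spliced in mainly in neurons, where SR-related proteins such as Srrm4 activate them, while the polypyrimidine tract protein Ptbp1 represses many of them in other cells. A microexon whose length is a multiple of 3 inserts amino acids without shifting the reading frame, often at the surface of a protein domain.

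The sequences of microexons that carry the largest changes are shown first, 5′ to 3′ as DNA, read from GENCODE vM21 transcripts with coordinates on GRCm38 (mm10). The microexon is in capitals and the 12 bases on either side, in lower case, belong to the neighbouring exons of the same transcript. The following 7 come from genes whose microexons are known from other tissues or had the largest falls of Psi with costimulation.
Taf1, 6 nt (chrX:101590734-101590739, plus strand): tatacacctcagGCTAAGcctcctgatttg
Taf1, 15 nt (chrX:101560934-101560948, plus strand): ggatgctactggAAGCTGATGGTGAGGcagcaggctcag
Eif4g1, 21 nt (chr16:20674786-20674806, plus strand): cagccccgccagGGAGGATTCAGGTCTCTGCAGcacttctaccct
Eif4g3, 21 nt (chr4:138095909-138095929, plus strand): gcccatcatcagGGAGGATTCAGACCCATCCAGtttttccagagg
Med23, 18 nt (chr10:24883204-24883221, plus strand): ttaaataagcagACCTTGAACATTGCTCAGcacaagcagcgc
Clasp2, 3 nt (chr9:113887045-113887047, plus strand): cctcatggcaagAGAgtgttcagcatg
Asxl2, 3 nt (chr12:3445452-3445454, plus strand): gaaagaaatcagAAGtgggacttcccc

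The 21-nt microexons of Eif4g1 and Eif4g3, which encode related scaffolds of the cap-binding translation initiation complex, were identical at 16 of 21 positions. Their first 11 bases, GGAGGATTCAG, were the same. Among the microexons with the largest rises of Psi, the following 6 illustrate the range from 2 to 9 codons, with Uckl1 as an example whose length is not a multiple of 3.
Myo18a, 9 nt (chr11:77822666-77822674, plus strand): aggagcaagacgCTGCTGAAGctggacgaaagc
Suco, 21 nt (chr1:161845560-161845580, minus strand): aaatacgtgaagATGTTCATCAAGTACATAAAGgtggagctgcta
Uckl1, 17 nt (chr2:181572470-181572486, minus strand): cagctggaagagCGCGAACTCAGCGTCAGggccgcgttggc
Max, 27 nt (chr12:76961263-76961289, minus strand): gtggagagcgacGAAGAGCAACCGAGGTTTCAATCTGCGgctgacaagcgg
Ap2m1, 6 nt (chr16:20540808-20540813, plus strand): atcaagagtcagCATCAGacgaaggaagaa
Arhgef1, 12 nt (chr7:24918520-24918531, plus strand): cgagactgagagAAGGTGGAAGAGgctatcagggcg

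The remaining sequences belong to the 2 microexons whose inclusion passed the test across libraries described below.
Synj1, 24 nt (chr16:90971564-90971587, minus strand): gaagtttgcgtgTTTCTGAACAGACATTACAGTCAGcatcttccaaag
Tle3, 17 nt (chr9:61403452-61403468, plus strand): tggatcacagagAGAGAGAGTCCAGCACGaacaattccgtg

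By annotation, 598 of the 612 microexons were whole internal exons of a GENCODE vM21 transcript. A further 8 were only parts of an exon, 5 were not annotated and 1 carried a gene name not found in that annotation. Of the 612, 69 directly adjoined another node of the same gene. Whether those 69 belong to a longer exon in other transcripts was not examined. In the annotation 575 lay in coding sequence, 28 in untranslated regions and 3 in noncoding transcripts. Of the 501 genes, 419 held 1 microexon, 82 held at least 2 and 17 at least 3, up to 7 in Fcho2, an endocytic membrane-bending protein. There were 609 distinct intervals, because 3 were listed under 2 gene names.

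The lengths were not spread evenly. A multiple of 3 was the length of 345 microexons (56.4%) and of 38.6% of the 88416 CE nodes of 28 nt or more. The most frequent lengths were 27 nt (82 microexons) and 24 nt (71). An annotated transcript that skips the node existed for 47.4% of microexons and 12.3% of longer nodes, and within the microexons for 57.1% of those that were a multiple of 3 and 34.8% of the others. The last base was G in 75.4% of microexons with sequence and in 80.4% of longer exons. Median GC content was 47.6% and 50.0%, and the median intron upstream was 1310 and 1277 bases long, respectively.

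Inclusion of microexons was far more varied than that of longer nodes. In Ag the median Psi of microexons was 0.934 with quartiles at 0.163 and 0.990, against a median of 0.971 and quartiles at 0.922 and 0.992 for longer nodes. Psi was below 0.1 for 119 microexons (19.4%) but for 0.558% of longer nodes, and above 0.9 for 58.7% and 84.0%. In Ag+Costim the shares of microexons below 0.1 and above 0.9 were 20.8% and 60.5%. Psi has 1 value per group with no replicate error, so these are descriptions.

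The shortest microexons were the most often skipped. Median Psi in Ag was 0.268 for the 76 microexons of 3 to 9 nt, 0.692 for the 150 of 10 to 18 nt and 0.958 for the 386 of 19 to 27 nt. Psi was below 0.1 in 42.1%, 32.7% and 9.84% of them. At the limits of the length range, the 82 nodes of 27 nt had a median of 0.951 and the 44 nodes of 28 nt, just outside it, 0.984, while the 9 nodes of 3 nt had 0.689 and the 6 shorter nodes 0.670. The shares also differed by frame. Among microexons that were a multiple of 3, 25.8% had a Psi below 0.1, against 11.2% of the others. The same shares of longer nodes were 0.818% and 0.394%. Annotated skipping was also more frequent at a multiple of 3. Within the microexons that had an annotated skipping transcript, the shares below 0.1 were closer, at 45.2% and 32.3%. All 119 microexons with a Psi below 0.1 in Ag had an annotated skipping transcript, as did 489 of the 493 longer nodes below 0.1.

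**Figure D1:**
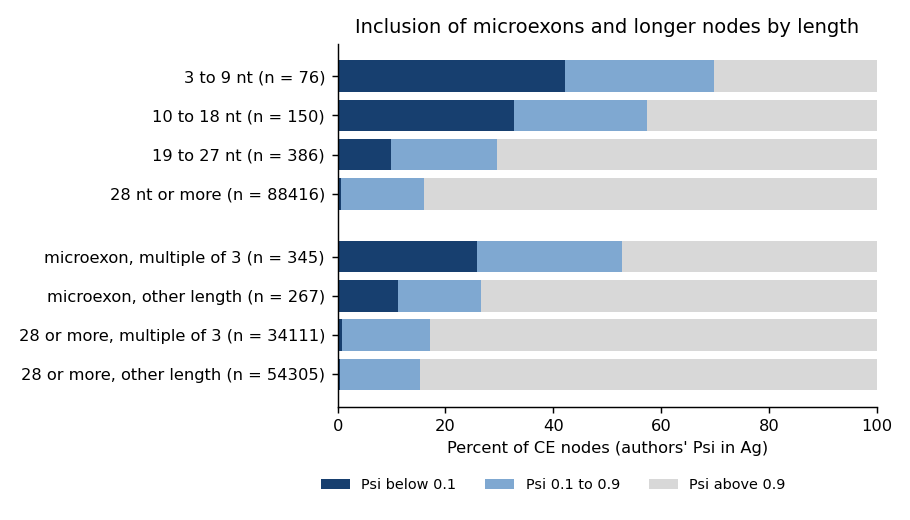
Shares of CE nodes with a Psi in Ag below 0.1, from 0.1 to 0.9 and above 0.9 (horizontal axis, percent), by node length in the upper bars and by frame in the lower bars, with the number of nodes beside each bar. The share below 0.1 goes from 42.1% at 3 to 9 nt to 0.558% at 28 nt or more.

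Psi changed in both directions between Ag and Ag+Costim, and falls made up a larger part of the changes than they did over all nodes. Psi was higher in Ag+Costim by over 0.05, the size threshold of the study, for 62 microexons (10.1%), where the share over all CE nodes was 10.6%. It was lower by over 0.05 for 45 microexons (7.35%), against 2.34% of all CE nodes. The other 505 lay within 0.05. The share of microexons past the threshold in either direction was 17.5%. The median difference, Ag+Costim less Ag, was 0.00031 for microexons and 0.00449 for all CE nodes. Past a difference of 0.1 there were 15 rises (2.45%, against 1.48% of all CE nodes) and 18 falls (2.94%, against 0.548%).

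Longer nodes are mostly near full inclusion and differ from microexons in that respect, so the 2 kinds were also set side by side at like Psi. At a mean Psi of the groups of 0.1 or less, 5 of 125 microexons rose by over 0.05 (4%, against 3.15% of 508 longer nodes) and 13 fell (10.4%, against 8.27%). From 0.1 to 0.5, 13 of 55 microexons rose (23.6%, against 27.5% of longer nodes) and 10 fell (18.2%, against 24.6%). From 0.5 to 0.9, 17 of 67 rose (25.4%, against 18.2% of longer nodes) and 17 fell (25.4%, against 10.5%). Above 0.9, 27 of 365 rose (7.40%, against 9.59%) and 5 fell (1.37%, against 1.11%). From 0.5 to 0.9 both shares were thus higher in microexons, and from 0.1 to 0.5 both were lower. The difference between microexons and longer nodes was not tested.

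**Figure D2:**
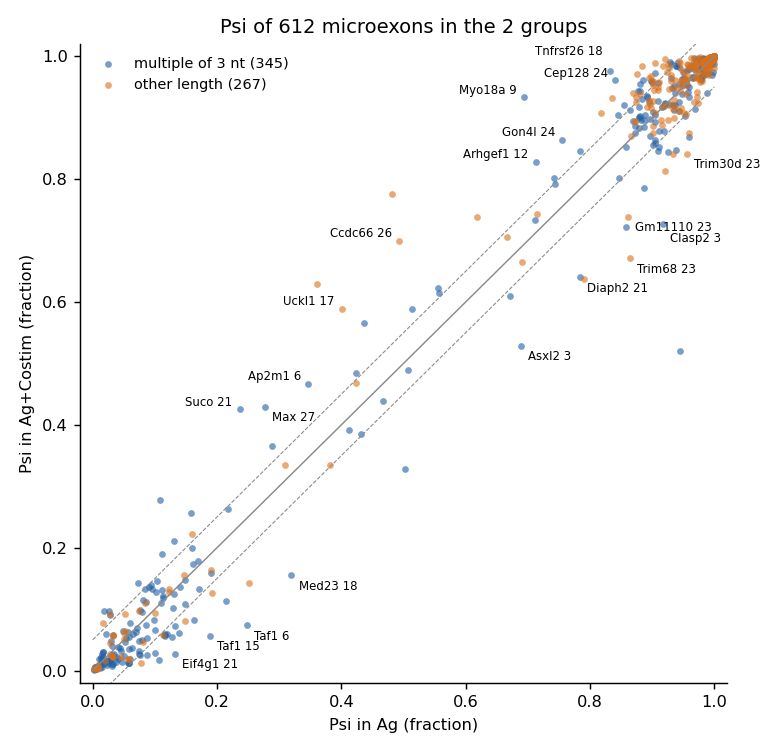
Psi of each of the 612 microexons in Ag (horizontal axis, fraction) and Ag+Costim (vertical axis, fraction), coloured by whether the length is a multiple of 3, with the solid line at equal Psi and dashed lines at a difference of 0.05. Most points lie at the 2 ends of the diagonal, and the 10 named rises and 10 named falls, labelled with gene and length in nt, lie outside the dashed lines.

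The 10 largest rises among whole annotated exons of genes with a mean log2 CPM (counts scaled to the library total) above 3 ranged from 6 to 27 nt, all in coding sequence, and 8 were a multiple of 3. The largest was a 9-nt exon of Myo18a, an unconventional myosin, with Psi 0.694 in Ag and 0.933 in Ag+Costim. A 26-nt exon of the centrosome and cilium protein Ccdc66 had 0.493 and 0.699. A 21-nt exon of Suco, a membrane protein with a SUN domain, had 0.236 and 0.425.

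For Uckl1, a uridine-cytidine kinase, Psi of a 17-nt exon was 0.401 and 0.589. The 27-nt exon of Max, the dimer partner that Myc needs to bind DNA, had a Psi of 0.277 in Ag and 0.429 in Ag+Costim. In Tnfrsf26, a receptor of the TNF receptor family, an 18-nt exon had 0.833 and 0.976.

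The 24-nt exon of Cep128, a centriole protein, had 0.841 and 0.961. Ap2m1 encodes the cargo-binding medium subunit of the AP-2 clathrin adaptor, and Psi of its 6-nt exon was 0.347 and 0.467. For Arhgef1, a guanine nucleotide exchange factor abundant in lymphocytes, a 12-nt exon had 0.713 and 0.828. A 24-nt exon of Gon4l had 0.756 and 0.864.

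The 10 largest falls ranged from 3 to 23 nt and 7 were a multiple of 3. Taf1, the largest subunit of the general transcription factor TFIID, appeared with 2 microexons. Psi of its 6-nt exon was 0.249 in Ag and 0.0736 in Ag+Costim, and Psi of its 15-nt exon 0.188 and 0.0567. Med23, a subunit of the Mediator complex that links transcription factors to RNA polymerase II, had an 18-nt exon with 0.319 and 0.155.

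Asxl2 encodes a chromatin regulator related to the Polycomb group. Its 3-nt exon on chromosome 12, a single codon long, had a Psi of 0.689 and 0.529. A second 3-nt exon of Asxl2, looked at after its values were seen, moved the other way, from 0.288 to 0.365. For Eif4g1 the 21-nt exon had 0.132 and 0.0268.

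Clasp2, which binds the growing ends of microtubules, had a 3-nt exon with a Psi of 0.917 and 0.726. A 21-nt exon of the actin-assembling formin Diaph2 had 0.783 and 0.640. Falls were also seen in 23-nt exons of Trim68 (0.864 and 0.671) and Trim30d (0.955 and 0.841), genes of the tripartite motif family, and of Gm11110 (0.860 and 0.739), the only named node in a noncoding transcript.

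Larger differences occurred in genes below the expression limit, where fewer reads stand behind a Psi, and these were chosen after their values were seen. An 18-nt exon of Rapgef2 had 0.945 in Ag and 0.520 in Ag+Costim, and a 26-nt exon of Sfxn4 had 0.481 and 0.775. The limit was set on the mean over all libraries, so it did not ensure that a named gene was well expressed in each group. Among the named falls, mean CPM was 3.85 in Ag and 17.2 in Ag+Costim for Clasp2, and 7.80 and 13.3 for Diaph2. For Trim68 it was 10.2 and 5.72, and for Gm11110 16.7 and 7.59. The number of reads behind a Psi is not in the columns used, so the precision of a single Psi is unknown.

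**Figure D3:**
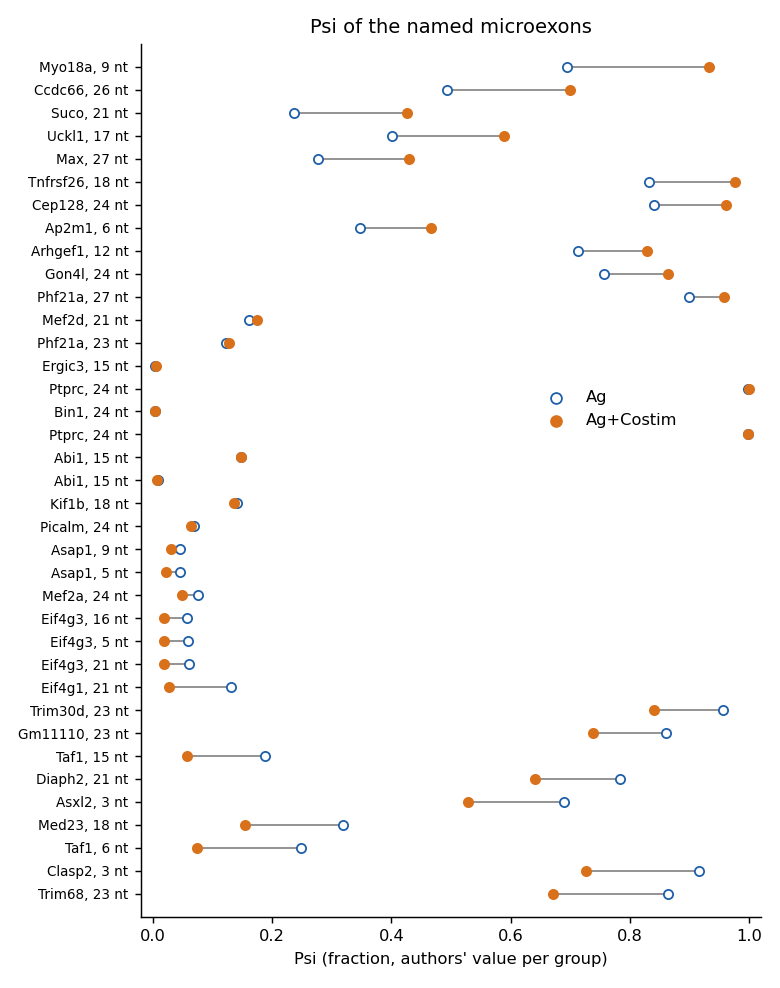
Psi (horizontal axis, fraction) of the microexons with the 10 largest rises and 10 largest falls and of those in genes of known microexons, ordered by the difference, with open circles for Ag and filled circles for Ag+Costim. Each circle is the authors' value for the group, so no error bar can be drawn.

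Genes with known microexons gave 22 members in 15 of the 26 genes listed. Skipping was the rule among them. Psi in Ag was below 0.2 for 16 of the 22, with a median of 0.127 in Ag and 0.0599 in Ag+Costim. Psi fell by over 0.05 for 5, those of Taf1, Clasp2, Med23 and Eif4g1 above, rose for 1 and lay within 0.05 for 16. The 1 rise was a 27-nt exon of Phf21a, a component of the histone demethylase complex of Kdm1a, with 0.899 and 0.959, whereas its 23-nt exon had 0.123 and 0.127.

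The 3 microexons of Eif4g3 had Psi of 0.0573 to 0.0600 in Ag and 0.0187 to 0.0192 in Ag+Costim. The exons of the transcription factors Mef2a (24 nt, 0.0751 and 0.0482) and Mef2d (21 nt, 0.162 and 0.174) had a low Psi in each group. So did those of the clathrin assembly protein Picalm (24 nt, 0.0694 and 0.0632), the kinesin Kif1b (18 nt, 0.141 and 0.135) and the 9-nt exon of the Arf GTPase activator Asap1 (0.0451 and 0.0311). For Abi1, a subunit of the actin-regulating WAVE complex, 2 exons of 15 nt had 0.148 and 0.147, and 0.00899 and 0.00749. The 24-nt exon of Bin1, a membrane-curving protein, had 0.00309 and 0.00325, and the 15-nt exon of Ergic3 had 0.00418 and 0.00507. At the other end, 2 exons of 24 nt in Ptprc, which encodes the phosphatase CD45, were included at 0.998 or more in each group.

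Microexons of the same gene share transcripts and cannot be counted as independent. Of the 17 genes with 3 or more, 7 had all of them within 0.05 of each other in Ag, and 9 held both a Psi below 0.2 and a Psi above 0.9, such as Pitpna, a phosphatidylinositol transfer protein (0.00156 to 0.999). Among the 7, Dctn1, the largest subunit of the dynactin motor complex, had 4 with Psi of 0.0322 to 0.0580 in Ag and 0.0105 to 0.0123 in Ag+Costim. The 3 of Spag9, a scaffold of JNK signalling, had 0.114 to 0.116 in Ag and 0.0580 to 0.0602 in Ag+Costim. The 5 of Pdlim5 had 0.0304 to 0.0323 and 0.0232 to 0.0238. Macf1, which links actin to microtubules, held both kinds, with 3 exons at 0.899 to 0.943 in Ag and 0.911 to 0.916 in Ag+Costim. Its other 3 exons, of 12 to 18 nt, had 0.0171 to 0.0210 in Ag and 0.0594 to 0.0972 in Ag+Costim. The 3 microexons each of Fyb and Lcp2, adaptor proteins of T cell receptor signalling, were included at 0.994 or more in each group.

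Replicates were available through the transcript counts of the 12 libraries. For each CE node, the counts of annotated transcripts that contain it and of those that skip it were compared within libraries with edgeR's quasi-likelihood test over all CE nodes. An annotated transcript on each side existed for 285 microexons, and 203 had enough counts to be tested, of 6212 CE nodes in all. This share counts whole transcripts that also differ in other exons, so its level is not Psi. Over the 203 microexons the mean share in Ag and Psi in Ag had a Spearman correlation of 0.72, and the changes from Ag to Ag+Costim one of 0.0928, too weak to count as a relation.

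Between Ag+Costim and Ag, 2 of the 203 microexons passed an adjusted p of 0.05, against 0.29% of all CE nodes tested. The median log2 change of the ratio was -0.01 for the microexons and -0.02 for all nodes. Without adjustment, 25 microexons had a p below 0.05 (12.3%, against 8.87% of all nodes), 10 higher and 15 lower. DESeq2 called 31 microexons (10.7% of all nodes) and limma on the share 11 (1.87% of all nodes).

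The first was the 24-nt exon of Synj1, a lipid phosphatase of endocytosis. Including transcripts held 98.2% to 99.1% of the counts in the Ag libraries (98.7% ± 0.419, SD, n = 5) and 66.8% to 71.5% in the Ag+Costim libraries (69.2% ± 2.04, n = 5). The 2 Naive libraries had 95.3% and 84.9%. The groups with antigen did not overlap, and the log2 ratio changed by -5.16 ± 0.53 (SE; edgeR adjusted p = 0.00348). Psi of this exon was 0.128 in Ag and 0.0541 in Ag+Costim, far below the share of transcripts but lower in Ag+Costim as well.

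The second was the 17-nt exon of Tle3, a corepressor of the Groucho family. Its share was 35.9%, 39.8%, 18.2%, 15.1% and 14.9% in the 5 Ag libraries and 87.7% to 92.3% in Ag+Costim. The Naive libraries had 81.3% and 88.5%, like Ag+Costim and above every Ag library. Between Ag and Ag+Costim the groups did not overlap, and the log2 ratio rose by 4.97 ± 0.57 (SE; edgeR adjusted p = 0.00493). It was the 1 microexon that differed between Ag and Naive (log2 change -4.26 ± 0.76, edgeR adjusted p = 0.0374; 0.483% of all nodes differed), where 26 had an unadjusted p below 0.05 (8.89% of all nodes). That call was lost on leaving out any of 7 libraries (Ag replicate 3 or 5, Ag+Costim replicate 1, 2, 4 or 5, or Naive replicate 2). Psi of this exon was 0.902 in Ag and 0.954 in Ag+Costim. In Ag this Psi lay far above the share of transcripts, and it rose far less than that share.

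No microexon passed between Ag+Costim and Naive in the edgeR test (0.499% of all nodes did), where 24 had an unadjusted p below 0.05 (10.1% of all nodes), DESeq2 called 25 (9.22%) and limma 13 (3.72%). For Ag against Naive, DESeq2 called 28 (8.31% of all nodes) and limma 11 (2.9%).

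None of the named rises and falls of Psi that could be tested passed in edgeR or limma. Those of Suco, Tnfrsf26, Cep128, Asxl2, Trim30d and Gm11110 were not among the nodes tested. Clasp2 was tested but had no including counts in Ag or Ag+Costim, so it could not have passed. DESeq2 called Med23 (adjusted p = 1.57e-08), Trim68 (0.0117) and Ccdc66 (0.037) among them. The ratio changed against the direction of Psi for the rises of Myo18a (log2 change -3.84), Arhgef1 (-0.43) and Uckl1 (-0.01). It also did so for the falls of Eif4g1 (4.1), Taf1 (15 nt, 3.72) and Diaph2 (2.61). The ratio went with Psi for Med23, Trim68, Ccdc66, Gon4l, Max, Ap2m1 and the 6-nt exon of Taf1. Among the known microexons, the 18-nt exon of Kif1b was at 46.8% to 61.1% in Ag and 31.2% to 38.4% in Ag+Costim, without overlap, and at 69.5% and 71.8% in Naive (adjusted p between Ag+Costim and Ag of 0.412 in edgeR, 9.66e-07 in DESeq2 and 0.0127 in limma). Including transcripts of Mef2a held 42.0% to 76.3% of the counts in Ag and 24.9% to 65.5% in Ag+Costim, well above its Psi. Those of Picalm held 98.0% to 99.8% in 4 of 5 Ag libraries and 9.56% in the other. In Ag+Costim they held 0.479% to 60.1%, and in Naive 1.70% and 1.34%. DESeq2 called Picalm between Ag+Costim and Ag (adjusted p = 4.26e-07), whereas edgeR (0.263) and limma (0.24) did not. For Med23, 4 of 5 Ag libraries were at 98.3% to 100% and the other at 1.02%, whereas Ag+Costim lay between 0% and 8.92%, and edgeR did not call the difference (adjusted p = 0.193). For Max the range was 40.0% to 64.5% in Ag and 41.3% to 66.2% in Ag+Costim, which overlapped (edgeR adjusted p = 0.976). For the 3-nt exon of Clasp2 the share was 0% in all 10 of these libraries, although Psi was 0.917 and 0.726, so the share and Psi can disagree outright. Among 60 tested microexons whose Psi differed by over 0.05, the ratio changed in the direction of Psi in 33, and among the 25 with an unadjusted p below 0.05 in 19.

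**Figure D4:**
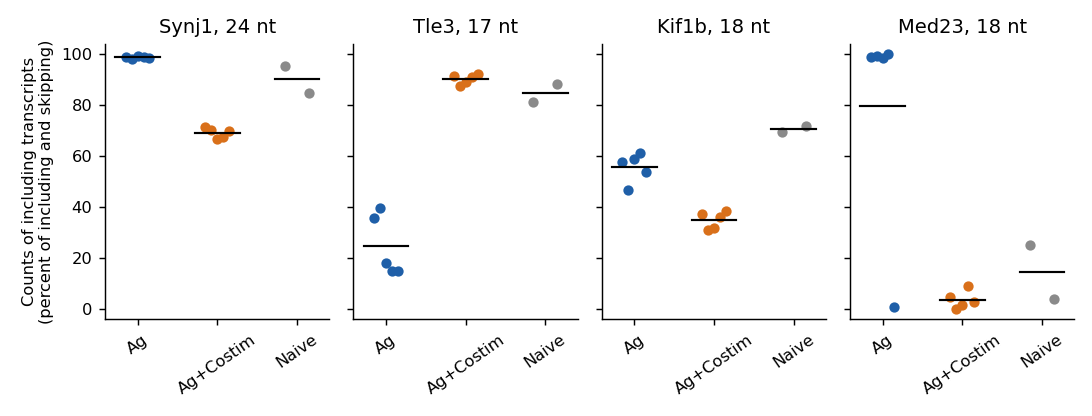
Counts of including transcripts as a percent of including and skipping transcripts (vertical axis) for 4 microexons in each library, with Ag in blue, Ag+Costim in orange and Naive in grey, and a bar at the group mean. Synj1 and Tle3 separate Ag from Ag+Costim with adjusted p of 0.00348 and 0.00493 (edgeR), while Kif1b and Med23 were not called by edgeR but were by DESeq2 (9.66e-07 and 1.57e-08).

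The genes that carry microexons were next compared at the level of gene counts. Of 501 host genes, 499 were tested, and between Ag+Costim and Ag 200 were higher and 146 lower, against 26.6% and 26.5% of the 18817 genes tested. The median log2 change was 0.12 for host genes and -0.05 for all genes. With upper-quartile scaling, the split was 146 higher and 190 lower, against 4056 and 6338 of all genes, and the medians were -0.08 for host genes and -0.24 for all genes. The balance of directions among host genes thus turned with the scaling, while their median stayed above that of all genes. Host genes entered only where a Psi was given, and 431 of them had a mean log2 CPM above 3. All genes were not matched to them in expression, so these differences may not be particular to microexon genes. In bulk RNA, more RNA per cell and more cells of a kind cannot be told apart.

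Host genes of the named microexons moved in each direction. Eif4g1 was at 25.2 to 46.0 CPM in Ag and 176 to 295 in Ag+Costim (log2 change 2.71 ± 0.18, edgeR adjusted p = 6.22e-08), as the Psi of its microexon fell. Max was at 14.95 to 20.4 and 70.2 to 102.5 CPM (2.25 ± 0.14, edgeR adjusted p = 4.24e-08). Taf1 was at 14.3 to 26.7 and 40.9 to 55.8 CPM (1.26 ± 0.16, edgeR adjusted p = 2.25e-05). Uckl1 was at 134 to 151 CPM in Ag and lower in every Ag+Costim library, at 45.3 to 71.1 (-1.40 ± 0.12, edgeR adjusted p = 4.5e-07). The hosts of the 62 microexons with a rise of Psi were higher in 34 cases (54.8%) and lower in 16 (25.8%), and those of the 45 with a fall higher in 18 (40.0%) and lower in 12 (26.7%). Hosts of the 505 within 0.05 were higher in 36.5% and lower in 31.5%, and the difference between these sets was not tested.

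Of 26 regulators of microexons and of 3′ splice sites, 19 had enough counts to be tested. Between Ag+Costim and Ag 12 were higher and 3 lower (26.6% and 26.5% of all genes tested), with a median log2 change of 0.34 against -0.05 over all genes. The neural activators Srrm4 and Srrm3, and Rbfox1, Rbfox3 and Nova1, had 0 counts in every library, which allows up to 3 counts a library or 0.0609 to 0.125 CPM. Rbfox2 and Nova2 reached at most 2 and 6 counts.

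Of the polypyrimidine tract repressors, Ptbp1 was at 138 to 164 CPM in Ag and 358 to 492 CPM in Ag+Costim, without overlap, and at 170 and 172 CPM in Naive. The log2 change was 1.49 ± 0.09 (edgeR adjusted p = 3.97e-08). Ptbp2, its neural relative, was low at 9.28 to 13.8 CPM in Ag and 7.76 to 9.58 CPM in Ag+Costim, ranges that overlapped, and was called lower (-0.39 ± 0.12, edgeR adjusted p = 0.015). Ptbp3 was higher by 0.26 ± 0.08 on the log2 scale (edgeR adjusted p = 0.0122), a call lost with upper-quartile scaling.

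Of the 5 factors that recognise the 3′ splice site, 3 had the largest changes among the regulators tested. U2af2, which binds the polypyrimidine tract, was at 13.9 to 19.1 CPM in Ag and 62.8 to 114 CPM in Ag+Costim (log2 change 2.25 ± 0.16, edgeR adjusted p = 1.34e-07). Its partner U2af1, which binds the terminal AG of the intron, was at 34.0 to 44.2 CPM and 135 to 157 CPM (1.96 ± 0.09, edgeR adjusted p = 4.16e-09). The branch point protein Sf1 was at 99.5 to 126 CPM and 270 to 388 CPM (1.60 ± 0.10, edgeR adjusted p = 5.98e-08). Naive libraries lay between these groups for all 3, with U2af2 at 39.2 and 48.4 CPM. Sf3b1 of the U2 particle was higher by 0.24 ± 0.07, not called with upper-quartile scaling, and Puf60 did not pass (edgeR adjusted p = 0.0574).

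Among SR-related proteins, Srrm1 was higher (105 to 147 CPM in Ag, 203 to 226 in Ag+Costim; log2 change 0.82 ± 0.09, edgeR adjusted p = 5.83e-06) and Srrm2 lower (423 to 603 and 275 to 321 CPM; -0.67 ± 0.10, edgeR adjusted p = 5.56e-05). Rnps1 was higher by 0.44 ± 0.07, and Srsf11, a cofactor of Srrm4, lay at 220 to 313 CPM in Ag and 264 to 281 in Ag+Costim. Of the muscleblind proteins, Mbnl3 was higher by 1.45 ± 0.12 and Mbnl1 by 0.59 ± 0.09, whereas Mbnl2 was lower (40.3 to 57.0 CPM in Ag, 26.5 to 40.0 in Ag+Costim; -0.54 ± 0.13, edgeR adjusted p = 0.00254). Celf1 was higher by 1.12 ± 0.09 and Celf2 by 0.34 ± 0.06, the latter not called with upper-quartile scaling. Qk and the RNA stability protein Elavl1 were not called.

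Between Ag and Naive, 4 of the 19 regulators were higher in Ag and 10 lower (24.2% and 22.5% of all genes tested), with a median log2 change of -0.51. This comparison shares the Ag libraries with the one above, so the values are given side by side only. U2af2, U2af1, Sf1, Celf1 and Srrm1 were lower in Ag than in Naive, by -1.39, -0.85, -0.66, -0.90 and -0.51 on the log2 scale, and Mbnl3 was higher by 1.59.

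**Figure D5:**
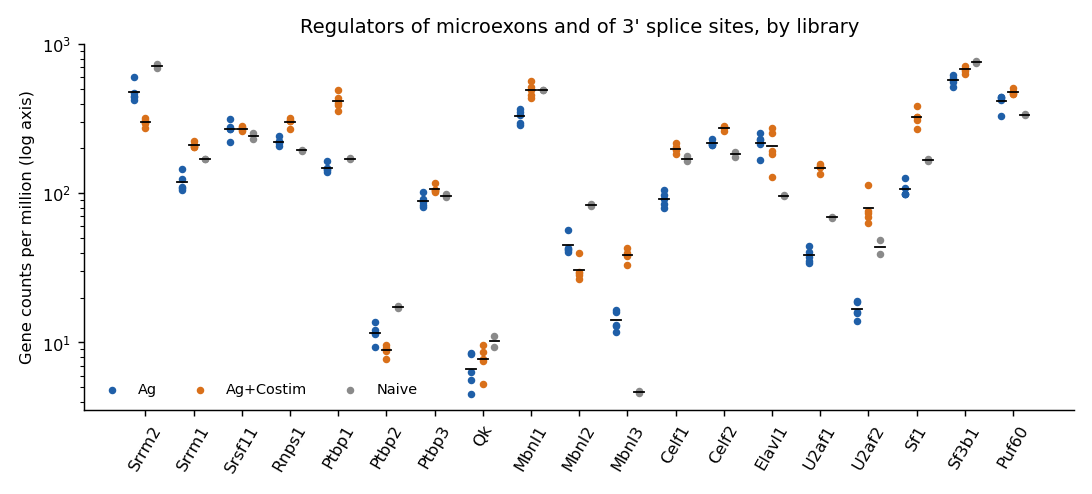
Gene-level CPM (vertical log axis) of the 19 regulators tested, with a point per library for Ag (blue), Ag+Costim (orange) and Naive (grey) and a bar at the group mean. Ptbp1, U2af1, U2af2 and Sf1 show no overlap between Ag and Ag+Costim.

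The libraries held 24006053 to 49294934 counts, with the Ag replicate 4 library the smallest and the next at 40028682. Spearman correlations of gene levels between replicates were 0.966 to 0.984. The T cell markers Cd3e, Cd3d, Cd3g, Cd8a and Cd8b1 were present in every group, with a summed level of 6189 to 7983 CPM in Ag, 3155 to 4296 in Ag+Costim and 6284 to 6802 in Naive. Erythroid genes summed to 588 to 6720 CPM in Ag and 14 to 210.4 in Ag+Costim, and B cell genes to 101 to 154.5 and 21.7 to 54.8 CPM. Myeloid genes summed to 56.0 to 174.5 and 82.8 to 145 CPM, and Cd4 reached at most 2.39 CPM. These marker CPM were scaled to the library total without TMM. No marker was at 0 throughout a group, and the part of these other cells in the microexon values was not tested.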

How the data were processed

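RNA-seq of sorted CD8+ T cells was analysed in 12 libraries (5 Ag, 5 Ag+Costim, 2 Naive), grouped by their labels. The members and lists used here were chosen with earlier results of these data known.

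The authors aligned single 100-base reads to mm10 with HISAT2 2.1.0 and SAMtools 1.9 and quantified them with StringTie 2.1.0, per the labels and the methods. The deposited tables hold estimated counts per gene and per transcript, derived from coverage and not normalized, 24006053 to 49294934 per library. The deposited Psi values are a fraction per node and group, computed by the authors with Whippet, whose version and way of combining replicates are not given in the sources used here. The table also holds the authors' own Psi difference and its probability, which were not used. FPKM values and the sample and lane sheets were not used.

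Psi differences were taken as Ag+Costim less Ag. Nodes were matched to GENCODE vM21 exons, with 18 microexons of outdated gene names placed by their exon ends. Counts of 26345 unannotated entries (0.0508% to 0.121% of counts) were left out. Transcript counts were summed over including and over skipping transcripts, and nodes with a mean of at least 20 counts, and at least 2 on each side, were tested with edgeR 4.0.16 (R 4.3.3; quasi-likelihood, robust, two-sided, 1 term per library and 1 inclusion term per group, Benjamini-Hochberg over all CE nodes). Genes were tested with edgeR after TMM scaling and filterByExpr over all genes. Gene CPM values used the TMM-scaled library totals. Those of the cell type markers and of the regulators with 0 counts used the plain totals. The alternatives were DESeq2 1.42.0, limma 3.58.1 (on the share, scaled for transcript length) and those of the closing section. The tests were run on simulated counts of a fixed spread, which do not cover shares that split within a group, such as Med23 in Ag. P-values measure the spread between libraries, which may be partly technical.

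Named microexons were the 10 largest rises and 10 largest falls of Psi among whole annotated exons of genes with a mean log2 CPM above 3, those called in the inclusion test of Ag+Costim against Ag, and those in a list of 26 genes with known microexons. Those on chromosome 18 are given without sequence. Sequences were read from GENCODE vM21 transcripts, and intron sequence was not used here.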

Additional observations from a re-analysis of the deposited data

Results flagged for a closer look

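The values per library of the named microexons and of the regulators were examined in Ag and Ag+Costim for a library far from the other 4 of its group. Chance alone flags about 1 in 20 groups of normally distributed values. That rate does not hold for shares at their lower or upper limit, and groups without any spread cannot be flagged. Of 90 groups, such groups included, 15 were flagged, a number that cannot be set against that rate.

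Inclusion shares from transcript counts held 9 of them. In Ag, Med23 (18 nt) stood at 1.02% in replicate 5 and 98.3% to 100% in the others, Picalm (24 nt) at 9.56% in replicate 2 and 98.0% to 99.8% in the others, and Myo18a (9 nt) at 21.2% in replicate 2 and 89.4% to 100% in the others. Eif4g1 (21 nt) was at 23.4% in Ag replicate 1 and Taf1 (15 nt) at 12.5% in Ag replicate 2, while the other 4 libraries were at 0% in each case. Phf21a (23 nt) was at 45.5% in Ag replicate 4, against 0.304% to 8.09% in the others. In Ag+Costim, Taf1 (6 nt) was at 1.10% in replicate 3 and an Abi1 exon (15 nt) at 0.0559% in replicate 4, with 0% in the others, and Ap2m1 (6 nt) was at 15.9% in replicate 3, against 1.81% to 5.06%.

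Among regulators, Srrm2 was at 602.5 CPM in Ag replicate 4 (423 to 468 in the others), Puf60 at 331 CPM in the same library (421 to 446) and Mbnl2 at 57.0 CPM in Ag replicate 5 (40.3 to 43.0). In Ag+Costim, Ptbp3 was at 117 CPM in replicate 2 (102 to 105), U2af2 at 114 CPM in replicate 2 (62.8 to 76.5) and Mbnl2 at 40.0 CPM in replicate 4 (26.5 to 29.9). The cause was not tested.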

How the results depend on the processing

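The share of microexons with a Psi difference past the threshold was 5.39% at 0.1 and 17.5% at 0.05. The percent with a rise less the percent with a fall was -0.49 at 0.1 and -0.61 for lengths of 3 to 15 nt, the reverse of the main sign. Restriction to whole exons, expressed hosts or 1 node per gene kept the sign. In the inclusion test of Ag+Costim against Ag, DESeq2 called 31 microexons and limma 11, against 2. For Ag against Naive they called 28, with more higher than lower (15 and 13), and 11, against 1, and the count was 0 with no minimum count or with the 2 groups alone. For Ag+Costim against Naive they called 25 and 13, against 0. Leaving out each library in turn gave 2 to 3, 0 to 1 and 0 to 3 calls in the 3 comparisons. The call for Ag against Naive was lost without Ag replicate 3 or 5, Ag+Costim replicate 1, 2 or 5, or Naive replicate 2, and without Ag+Costim replicate 4 the 1 call was higher and not lower. For Ag+Costim against Naive there were 3 calls without Ag replicate 4 and 1 without Ag+Costim replicate 3. Upper-quartile scaling called 336 host genes with the balance turned (146 higher, 190 lower). Ptbp3, Celf2 and Sf3b1 were not called under it, which left 12 regulators (9 higher, 3 lower), and no called regulator changed direction. Leaving out libraries gave 331 to 361 host genes and 15 to 16 regulators. Puf60, not called in edgeR (adjusted p = 0.0574), passed with DESeq2 (0.0398), with the replicate block (0.0416) and without Ag+Costim replicate 4 (0.0468). The cause was not tested.

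Libraries share replicate numbers between groups, but deviations from the group means of same-numbered libraries correlated at -0.0644 to 0.0951, so the numbers were not taken as pairs. With a replicate block the inclusion test called 0 microexons in each of the 3 comparisons. Synj1 (-5.16) and Tle3 (4.97) kept their log2 changes with an adjusted p of 0.158 in edgeR. With the block 350 host genes and 16 regulators were called.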
